A study of Mus musculus with 10 samples.

Results

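The hypothalamus was set against the hippocampus in 6 of the 10 RNA sequencing libraries of a study of the adult mouse brain. These were 2 hypothalamus and 4 hippocampus libraries, chosen by their tissue labels, and the 4 libraries of prefrontal cortex entered no fit. The mice were of the outbred CF1 stock and 56 days old. Their parents had received either a low-protein (LP) or a normal-protein (NP) diet from mating onwards, and the mothers were held to that diet until the pups were weaned on postnatal day 21. From weaning, every animal ate the NP diet for 5 weeks, so the diets differed in early life and not at sampling. The hypothalamus libraries came from 1 LP male sample and 1 NP male sample. The hippocampus libraries came from 1 LP male, 1 NP male, 1 LP female and 1 NP female sample. Whether a library holds 1 animal or a pool, and whether regions were cut from the same brains, is not given in the labels. The p-values therefore measure the spread between these libraries only. Because the hypothalamus was sampled in males only, genes on chromosomes X and Y were left out.

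The hypothalamus is a collection of small nuclei that govern feeding, water balance, temperature, sleep and the pituitary, and its neurons are known for releasing peptide hormones. The hippocampus belongs to the telencephalon, and its granule and pyramidal neurons, which serve memory, signal with glutamate loaded into vesicles by the transporter Slc17a7. Bulk RNA of a dissected region mixes all of its cells, so fewer cells of a type and less RNA per cell cannot be told apart.

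Library totals ranged from 7871010 to 16265481 counts. The smallest total belonged to the female NP hippocampus library, in which no reads were recorded beyond Park7 on chromosome 4 or on chromosomes 5 to 9, X, Y and M. For the 14914 genes so affected that are not on X or Y, this library was treated as not measured, and the comparison rests on 2 against 3 libraries. Across genes measured in all 6 libraries, the correlation of log2(CPM + 1) was 0.991 between the hypothalamus libraries, 0.993 to 0.996 within hippocampus and 0.912 to 0.921 between regions. CPM, the unit of all levels below, are counts scaled to a common library size. No 2 libraries looked like 1 library deposited again.

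The libraries carried the markers of their labels. Avp, which encodes the hormone vasopressin, stood at 165 CPM in the LP and 314 CPM in the NP hypothalamus library. In hippocampus it stood at 0.422 (LP male), 0.352 (NP male), 0.286 (LP female) and 0.551 CPM (NP female). Otp, a homeobox factor needed for hypothalamic neuroendocrine neurons, had 58.9 (LP) and 63.3 CPM (NP) in hypothalamus, against 0, 0.0880, 0 and 0.367 CPM in the hippocampus libraries in the same order. Neither gene's regions overlapped. Avp was higher in hypothalamus with a log2 difference of 9.18 ± 0.11 (SE). Its adjusted p was 6.87e-16 in edgeR's quasi-likelihood test with Benjamini-Hochberg adjustment, and Otp was higher by 8.97 ± 0.24 (adjusted p = 9.63e-14). Here and below, SE is the log2 difference divided by the square root of the test's F statistic. For genes with few hippocampus counts, such as Avp (18) and Otp (5), it is smaller than counting error alone. The vesicular glutamate transporter gene Slc17a7 had 3.78 (LP) and 3.14 CPM (NP) in hypothalamus, against 1924, 1925 and 1902 CPM in the LP male, NP male and LP female hippocampus. It was lower in hypothalamus (log2 difference -9.11 ± 0.09, adjusted p = 3.43e-27). Prox1, a homeobox factor of dentate granule neurons, reached 31.3 (LP) and 29.1 CPM (NP) in hypothalamus, against 117, 113, 123 and 131 CPM in hippocampus, a smaller difference in the same direction (log2 -2.002 ± 0.08, adjusted p = 1.26e-10). The regions did not overlap for Slc17a7 or Prox1. By GENCODE M21 on GRCm38 (mm10), Avp (ENSMUSG00000037727) lies at chr2:130580620-130582554, Otp (ENSMUSG00000021685) at chr13:94875602-94885130, Slc17a7 (ENSMUSG00000070570) at chr7:45163949-45176142 and Prox1 (ENSMUSG00000010175) at chr1:190118035-190170714.

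The stretches before the transcription starts of Avp and Trh, the thyrotropin-releasing hormone gene, from the upper extreme, and of Neurod2 and Slc17a7, from the lower one, are shown because these genes stand at the extremes of the comparison. They are RefSeq sequences of GRCm38.p6, each 250 bases long, ending at the base before the RefSeq start, written 5′ to 3′ on the gene's strand. Capitals mark the E-box CAGATG or CATCTG, the same motif on the opposite strand and 1 of the hexamers that basic helix-loop-helix factors such as Neurod2 and Neurod6 are known to bind. The Avp stretch is chr2:130582589-130582838 on the minus strand. The Trh stretch is chr6:92244651-92244900 on the minus strand. The Neurod2 stretch is chr11:98329646-98329895 on the minus strand. The Slc17a7 stretch is chr7:45163671-45163920 on the plus strand. The RefSeq start lies 34 bases before the GENCODE M21 gene start for Avp, 28 before it for Slc17a7, at it for Trh and 3 bases inside the GENCODE gene for Neurod2.
Avp: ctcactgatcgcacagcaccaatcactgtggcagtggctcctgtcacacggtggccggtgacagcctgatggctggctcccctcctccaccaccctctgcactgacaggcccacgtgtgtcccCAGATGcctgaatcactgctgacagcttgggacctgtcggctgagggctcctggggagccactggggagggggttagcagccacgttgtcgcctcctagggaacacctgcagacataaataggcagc
Trh: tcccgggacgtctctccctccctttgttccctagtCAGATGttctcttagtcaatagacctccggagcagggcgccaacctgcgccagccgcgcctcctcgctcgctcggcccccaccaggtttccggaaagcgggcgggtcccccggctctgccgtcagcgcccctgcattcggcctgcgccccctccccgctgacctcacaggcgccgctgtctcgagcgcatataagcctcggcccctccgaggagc
Neurod2: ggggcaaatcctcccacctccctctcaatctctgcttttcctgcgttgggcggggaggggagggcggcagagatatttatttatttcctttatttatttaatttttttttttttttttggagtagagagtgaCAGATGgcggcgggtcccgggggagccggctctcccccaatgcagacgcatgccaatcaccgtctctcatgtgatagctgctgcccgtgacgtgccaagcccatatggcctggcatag
Slc17a7: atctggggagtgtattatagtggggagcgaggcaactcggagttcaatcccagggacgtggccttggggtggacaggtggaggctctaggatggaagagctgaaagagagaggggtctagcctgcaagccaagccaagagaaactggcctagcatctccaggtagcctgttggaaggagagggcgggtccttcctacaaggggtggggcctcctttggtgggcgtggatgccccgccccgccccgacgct
Of 11479 tested genes with such a sequence, 10.4% held the E-box. Avp, Otp, Trh and Cartpt held it among 11 of the 12 most increased genes, and Neurod2 among 8 of the 12 most decreased. The shares were 13.7% of 1456 genes at least 2-fold higher in hypothalamus and 10% of 1108 at least 2-fold lower. The palindrome TAATTA, a core of many homeodomain sites, was in 2.33% of all, in 3.02% of those higher and 2.53% of those lower, and among the most increased genes in Asb4. A match describes letters and does not show binding.

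In all, 16361 genes were tested, 11120 of them in 6 libraries and 5241 in 5. The 6-library and the 5-library genes were fitted apart, each with its own shared spread. The size of an adjusted p therefore does not rank genes of the 5-library set, such as Slc17a7, against the others. With an adjusted p under 0.05, 63.6% of the tested genes differed between regions: 5482 were higher in hypothalamus (33.5%) and 4918 lower (30.1%). A difference of at least 2-fold, a threshold added after the data were seen, was met by 1992 genes that were higher (12.2%) and 1665 that were lower (10.2%). At 16-fold, 174 were higher and 90 lower. The libraries of the regions did not overlap for 70.4% of tested genes, and the median difference over all tested genes was 0.03 (log2). Any count of list members below is to be read against these shares. The lists were chosen with earlier results of these data known, and some by the region where members are known to be expressed. Such counts therefore describe the members and do not test them. A gene could also pass the count filter by its level in a single region. For genes almost silent in hippocampus, the diet term of the fit takes up the difference between the hypothalamus libraries, so their standard errors do not contain it; dropping that term left 139 of the 140 genes chosen by rule on the same side of the threshold.

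**Figure D1:**
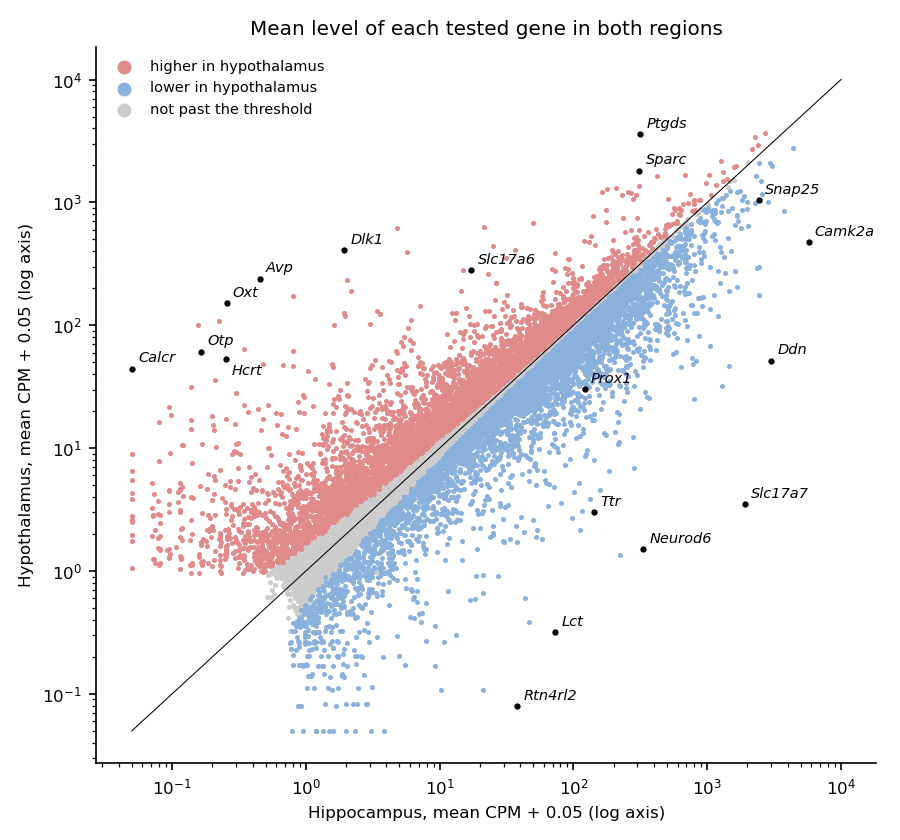
Mean level of each of the 16361 tested genes in hypothalamus (vertical axis, 2 libraries) and hippocampus (horizontal axis, 3 or 4 libraries), in CPM with 0.05 added, on log axes; the line marks equal levels. Red points were higher in hypothalamus at an adjusted p under 0.05, blue points were lower and grey points did not pass; Calcr and Slc17a7 lie at opposite extremes.

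Peptide hormone and neuropeptide genes were among those at the upper end of the comparison, beside genes such as Calcr, Otp, Fezf1, Isl1 and Asb4. Of 28 tested peptide genes of hypothalamic neurons, 25 were higher in hypothalamus, 2 lower and 1 did not pass, with a median log2 difference of 3.24. In the list of 32, 3 genes fell below the count filter and Kiss1 was not analysed here. Pmch, which encodes melanin-concentrating hormone of lateral hypothalamic neurons, had 74.1 (LP) and 128 CPM (NP) in hypothalamus, against 0.337, 0.0880, 0 and 0 CPM in LP male, NP male, LP female and NP female hippocampus. Oxt, the oxytocin gene that neighbours Avp on chromosome 2, had 93.5 (LP) and 209 CPM (NP), against 0.253, 0, 0.477 and 0.0918 CPM. Trh had 79.0 (LP) and 139 CPM (NP) in hypothalamus, against 0.253, 0.176 and 0.0954 CPM in the 3 hippocampus libraries that measured it. In Pmch, Oxt, Trh and Avp alike, the NP hypothalamus library was the higher of its pair, and every hippocampus library stayed below 1 CPM. Their log2 differences were 9.69 ± 0.23, 9.47 ± 0.21 and 9.05 ± 0.18 for Pmch, Oxt and Trh (adjusted p = 1.46e-14, 8.3e-14 and 2.29e-21). Trh was fitted in 5 libraries, apart from Pmch and Oxt, so its smaller adjusted p does not rank it above them.

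Feeding peptides differed from each other in how evenly the hypothalamus libraries held them. Hcrt, the orexin gene of arousal-promoting lateral hypothalamic neurons, had 18.6 CPM in the LP and 88.6 CPM in the NP hypothalamus library, against 0, 0.528, 0.0954 and 0.184 CPM in hippocampus. Cartpt, whose peptide restrains feeding, was even at 180 (LP) and 167 CPM (NP), against 0.253, 1.15, 0.668 and 0.918 CPM. Agrp and Pomc, which mark opposing neurons of the arcuate nucleus, were even too. Agrp had 23.1 (LP) and 21.6 CPM (NP), against 0.381 to 0.591 CPM in hippocampus, and Pomc had 134 (LP) and 119 CPM (NP), against 1.38 to 2.38 CPM. Ghrh, the growth hormone-releasing hormone gene, had 16.9 (LP) and 20.1 CPM (NP) with 2 counts in all hippocampus libraries together, a count ratio of 415 (95% interval 114 to 3430, counting error only). Npvf, a gene of RFamide peptides, had 291 counts over the hypothalamus libraries and 0 over hippocampus, which makes it at least 99.7-fold higher against a floor of 3 counts over the group. The call on Npvf was lost under DESeq2 (adjusted p = 0.0952). Among Avp, Oxt, Cartpt, Pmch, Trh and Hcrt, mean hypothalamus levels per kilobase of exon were 416 CPM for Avp, 282 for Oxt, 136 for Cartpt, 135 for Pmch, 78.9 for Trh and 71.6 for Hcrt, and neighbours in this order overlapped between the 2 libraries except Oxt and Cartpt.

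Peptide genes known from many brain regions showed smaller differences. Tac1, Nts, Pdyn and Penk, which encode tachykinin, neurotensin and opioid precursors, were higher by 4.16, 2.99, 2.59 and 2.44 (log2). Npy was higher by 0.93 ± 0.10, with 59.9 (LP) and 60.6 CPM (NP) in hypothalamus against 27.4 to 37.9 CPM in hippocampus, and Sst by 0.56 ± 0.10. Crh, the stress-axis releasing hormone gene, was higher by 1.13 ± 0.38 (adjusted p = 0.0199), a call lost in 8 of 16 alternative fits, and its regions overlapped: 1.03 (LP) and 4.83 CPM (NP) in hypothalamus, against 1.19 to 1.52 CPM in hippocampus. Cck, a peptide of cortical and hippocampal interneurons and pyramidal cells, and Grp were the members that were lower. Cck had 14.04 (LP) and 13.1 CPM (NP) in hypothalamus against 191 to 219 CPM in hippocampus (log2 -3.91 ± 0.09). Vip did not pass (log2 -0.11).

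**Figure D2:**
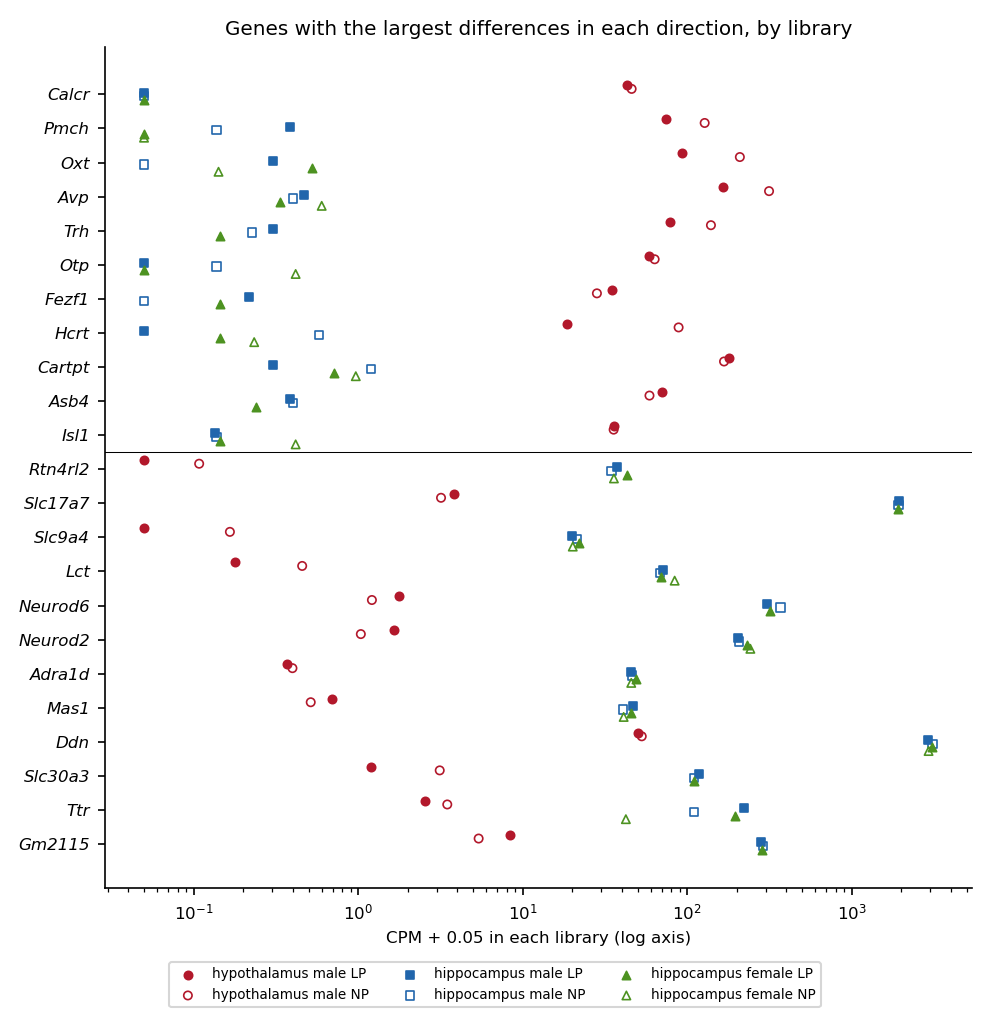
Level in each library of the protein-coding genes with the largest differences in each direction, 11 higher and 12 lower in hypothalamus (mean of at least 10 CPM, no overlap), in CPM with 0.05 added, on a log axis. Red circles are hypothalamus, blue squares male hippocampus and green triangles female hippocampus; filled symbols are LP and open symbols NP. Hcrt shows the widest gap between the hypothalamus libraries (18.6 CPM in LP, 88.6 CPM in NP) and Ttr ranges from 42.3 to 220 CPM within hippocampus.

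Transcription factors that lay out the hypothalamic nuclei were higher as a group. Of 33 tested, 28 were higher in hypothalamus, 2 lower and 3 did not pass, and the median log2 difference was 5.87 (5.42 with the 3 genes at 0 in hippocampus placed at their bound). These 3 were Bsx, a factor of arcuate neurons, Nkx2-4 and Hmx3, at least 71.3-fold, 81.1-fold and 42.5-fold higher. Under DESeq2 the calls on Bsx and Nkx2-4 were lost (adjusted p = 0.115 and 0.0849). Members at or near 0 in hippocampus, such as these and Fezf1, passed the count filter through hypothalamus alone. Their direction was thereby fixed before the test, and they add to the 28 and to the median. Fezf1, which is needed for the ventromedial nucleus, had 35.1 (LP) and 28.2 CPM (NP) in hypothalamus and 3 counts over hippocampus, a count ratio of 354 (95% interval 121 to 1720, counting error only). Isl1, a LIM homeobox factor of arcuate and striatal neurons, had 36.1 (LP) and 35.7 CPM (NP), against 0.0844, 0.0880, 0.0954 and 0.367 CPM in hippocampus.

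Some factors of single nuclei were close to equal in the 2 hypothalamus libraries and others were not. Nkx2-1, which specifies the ventral hypothalamus, had 52.3 (LP) and 42.1 CPM (NP), against 0.264 to 0.928 CPM in hippocampus. Sim1, a factor of the paraventricular nucleus, had 10.6 (LP) and 10.5 CPM (NP) and 3 counts over hippocampus. Nr5a1, the ventromedial factor SF-1, had 24.9 (LP) and 20.01 CPM (NP), against 0.0880 to 0.422 CPM. Lhx9 and Lhx6 were the members that were lower in hypothalamus. Lhx9 had 2.31 (LP) and 4.30 CPM (NP) in hypothalamus against 27.1 to 29.6 CPM in hippocampus. Lhx6, which also marks interneurons of the medial ganglionic lineage in hippocampus, had 3.46 (LP) and 12.3 CPM (NP) against 19.2 to 21.3 CPM. Dlx1, Dlx5 and Onecut2 did not pass (log2 -0.19, 0.26 and -0.16).

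Transcription factors of the telencephalon and its excitatory neurons all ran the other way. Each of 22 tested was lower in hypothalamus, 21 of them by at least 2-fold, with a median log2 difference of -3.23, and in none did the regions overlap. Neurod6 and Neurod2, basic helix-loop-helix factors of cortical and hippocampal pyramidal neurons, fell furthest. Neurod6 had 1.73 (LP) and 1.16 CPM (NP) in hypothalamus, against 307, 370 and 318 CPM in LP male, NP male and LP female hippocampus (log2 -7.88 ± 0.12, adjusted p = 3.87e-23). Neurod2 had 1.60 (LP) and 0.989 CPM (NP), against 204, 207, 231 and 242 CPM in LP male, NP male, LP female and NP female hippocampus (log2 -7.42 ± 0.15, adjusted p = 1.3e-13). Emx1, a homeobox factor of the dorsal telencephalon, had 0.385 (LP) and 0.116 CPM (NP), against 13.0 to 13.3 CPM.

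Genes that mark dentate gyrus and CA fields followed in the same direction with exceptions. Of 26 tested, 21 were lower in hypothalamus and 5 higher, with a median log2 difference of -2.22. Lct, which encodes lactase, had 0.128 (LP) and 0.407 CPM (NP) in hypothalamus, against 71.5, 68.2, 69.5 and 83.8 CPM in LP male, NP male, LP female and NP female hippocampus. Spink8 (log2 -5.13 ± 0.22), the POU factor gene Pou3f1 (-4.51 ± 0.15) and Il16 (-4.37 ± 0.15) were next. The 5 that were higher, named because so few, were Dcn (1.76), Amigo2 (1.34), Calb1 (1.10), Pcp4 (0.98) and Cacng5 (0.74). Calb1, a calcium-buffering protein of many neuron types, had 252 (LP) and 221 CPM (NP) in hypothalamus against 99.9 to 120 CPM in hippocampus. Dcn, a matrix proteoglycan, also belongs to the meningeal list given below.

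Further genes at the lower extreme follow, with the known role of each. Rtn4rl2, a receptor related to the Nogo receptor, had 1 count over the hypothalamus libraries and 1679 over hippocampus, a count ratio of 1230 (95% interval 221 to 48800). Slc9a4, a sodium-proton exchanger, had 2 counts against 929, a ratio of 342 (94.3 to 2820). Adra1d, the alpha-1D adrenergic receptor gene, had 0.321 (LP) and 0.349 CPM (NP) in hypothalamus against 45.5 to 48.7 CPM, and Mas1, a receptor gene of the angiotensin system, 0.641 (LP) and 0.465 CPM (NP) against 40.7 to 46.6 CPM. Slc30a3, which loads zinc into glutamatergic vesicles, had 1.15 (LP) and 3.08 CPM (NP) against 109 to 117 CPM. Gm2115, a gene with no role assigned here, had 8.27 (LP) and 5.35 CPM (NP) against 280 to 288 CPM.

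The genes of glutamate and GABA transmission split by partner. Slc17a6, the vesicular glutamate transporter of subcortical neurons, had 308 (LP) and 252 CPM (NP) in hypothalamus, against 18.3, 13.8 and 19.4 CPM in LP male, NP male and LP female hippocampus (log2 4.09 ± 0.07, adjusted p = 9e-22). It ran opposite to Slc17a7. The genes of the GABA enzymes and of the vesicular GABA transporter, Slc32a1, moved less. Gad2 was higher by 0.88 ± 0.08 and Slc32a1 by 0.85 ± 0.10. Gad1 was lower (log2 -0.13 ± 0.05, adjusted p = 0.044 in the edgeR test), a call lost in 8 of 16 alternative fits. The GABA uptake genes Slc6a11, of astrocytes, and Slc6a13, of meninges and vessels, were higher by 2.31 ± 0.05 and 3.68 ± 0.13. Of the 16 tested genes of this kind, 7 were higher, 8 lower and 1 did not pass.

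Genes for making and moving monoamines and acetylcholine were mostly higher: 10 of 12 tested rose in hypothalamus and 2 fell, with a median log2 difference of 3.30. Th, the rate-limiting enzyme of dopamine synthesis, had 53.5 (LP) and 42.8 CPM (NP) in hypothalamus, against 0.928, 0.176 and 0.191 CPM in LP male, NP male and LP female hippocampus (log2 6.78 ± 0.21). Hdc, the enzyme that makes histamine in tuberomammillary neurons, had 116 (LP) and 89.2 CPM (NP) against 2.10 to 3.46 CPM (5.08 ± 0.12). Slc6a3, the dopamine transporter, was uneven, with 49.9 CPM in the LP and 5.64 CPM in the NP hypothalamus library, against 0.0844 to 0.352 CPM in hippocampus. Chat, the enzyme that makes acetylcholine, had 1.09 (LP) and 2.79 CPM (NP) against 0 to 0.184 CPM. Tph2, an enzyme of serotonin synthesis, was among the 2 that fell (log2 -1.56, adjusted p = 0.00468). Its call was lost under DESeq2 and without the LP hypothalamus library, and without that library 10 of the 12 genes were higher and 0 lower.

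Postsynaptic scaffold and calcium signalling genes, many of them abundant in dendritic spines, were lower in hypothalamus in 27 of 28 cases, 26 by at least 2-fold, and no member's regions overlapped. The median log2 difference was -2.52, and the summed level of the 20 members measured in all libraries was 3605 (LP) and 3631 CPM (NP) in hypothalamus, against 21990 to 22880 CPM in hippocampus. Camk2a, the alpha subunit of the calcium-calmodulin kinase of spines, had 480 (LP) and 465 CPM (NP) in hypothalamus, against 5757, 5819, 5764 and 5551 CPM in LP male, NP male, LP female and NP female hippocampus (log2 -3.60 ± 0.04, adjusted p = 4.88e-16). Ddn, which encodes the postsynaptic protein dendrin, had 50.3 (LP) and 52.9 CPM (NP), against 2910, 3097, 3077 and 2928 CPM (-5.86 ± 0.06). Itpka, an inositol trisphosphate kinase of spines, and Hpca, the calcium sensor hippocalcin, were lower too (log2 -4.85 and -3.77). Camk2d was the exception, at 153 (LP) and 142 CPM (NP) in hypothalamus against 38.7 to 42.7 CPM in hippocampus (log2 1.86 ± 0.06).

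Receptor subunits for glutamate and GABA were selective. Of 23 glutamate receptor genes, 8 were higher in hypothalamus, 11 lower and 4 did not pass. The NMDA receptor subunit Grin2a was lower (log2 -3.86 ± 0.09), with 25.6 (LP) and 25.1 CPM (NP) in hypothalamus against 334 to 412 CPM in hippocampus, and so was Grin2b (-2.74 ± 0.07). The metabotropic receptor Grm5 was lower (-1.88 ± 0.07) and Grm8 higher (1.85 ± 0.15). Among 13 GABA receptor genes, 3 were higher and 10 lower. Gabrd, the delta subunit of receptors outside synapses on dentate granule cells, was lower (-4.08 ± 0.18), as were Gabra5 (-1.88 ± 0.07) and Gabra4 (-1.78 ± 0.08). Gabrg1 was higher (2.51 ± 0.10), with 82.8 (LP) and 87.4 CPM (NP) against 12.0 to 17.6 CPM. Of 14 serotonin and dopamine receptor genes, 4 were higher, 7 lower and 3 did not pass; Htr1d (3.50) and Drd2 (2.90) led upward and Htr5b (-4.10) and Htr3a (-3.40) downward.

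Receptors for hormones and peptides were higher in hypothalamus for 23 of 37 tested genes, lower for 9 and not past the threshold for 5, with a median log2 difference of 1.22. Calcr, the calcitonin and amylin receptor gene, had 42.9 (LP) and 45.9 CPM (NP) in hypothalamus, that is 669 and 789 counts, and 0 counts in all 3 hippocampus libraries that measured it. It was at least 499-fold higher against the floor of 3 counts over the group (adjusted p = 3.93e-17). Mc3r, a melanocortin receptor gene of energy balance, was higher by 6.40 ± 0.31, and Avpr1a, a vasopressin receptor gene, by 5.33 ± 0.32. Oprk1, the kappa opioid receptor gene, had 26.1 (LP) and 27.5 CPM (NP) against 0.763 to 0.969 CPM. Lepr, the leptin receptor gene, had 14.6 (LP) and 6.98 CPM (NP) against 0.826 to 1.34 CPM (3.28 ± 0.19), and Esr1, the estrogen receptor alpha gene, 21.5 (LP) and 20.01 CPM (NP) against 1.52 to 2.30 CPM (3.34 ± 0.15). Nr3c2, the mineralocorticoid receptor gene, was lowest of the list at -3.30 ± 0.08, with 24.9 (LP) and 23.3 CPM (NP) against 226 to 253 CPM in hippocampus. The glucocorticoid receptor gene Nr3c1 did not pass, at 94.2 (LP) and 81.7 CPM (NP) against 74.1 to 87.5 CPM (0.15 ± 0.08).

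Imprinted genes, expressed from 1 parental copy, were higher in hypothalamus for 28 of 33 tested, lower for 2 and not past the threshold for 3, with a median log2 difference of 1.89. Calcr, imprinted in brain, and Asb4, an ankyrin repeat gene, led the list. Asb4 had 69.8 (LP) and 58.9 CPM (NP) in hypothalamus, against 0.337, 0.352 and 0.191 CPM in LP male, NP male and LP female hippocampus. Dlk1, a Notch-related ligand gene, had 396 (LP) and 420 CPM (NP), against 0.591, 5.46, 0.858 and 0.643 CPM in hippocampus, where the NP male library lay above the other 3. Magel2, a gene of the Prader-Willi region, had 123 (LP) and 116 CPM (NP) against 1.76 to 2.10 CPM (5.98 ± 0.12), and Ndn and Peg3 were higher by 2.14 and 2.25. Snrpn, from the same region as Magel2 and Ndn, was lower (-0.21 ± 0.06), and Dio3 was the other member that fell (-0.79). Summed over the 15 members measured in all libraries, the level was 7403 (LP) and 7801 CPM (NP) in hypothalamus against 3559 to 3927 CPM in hippocampus. Igf2, also in this list, is a known product of meninges and is given with those genes below.

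**Figure D3:**
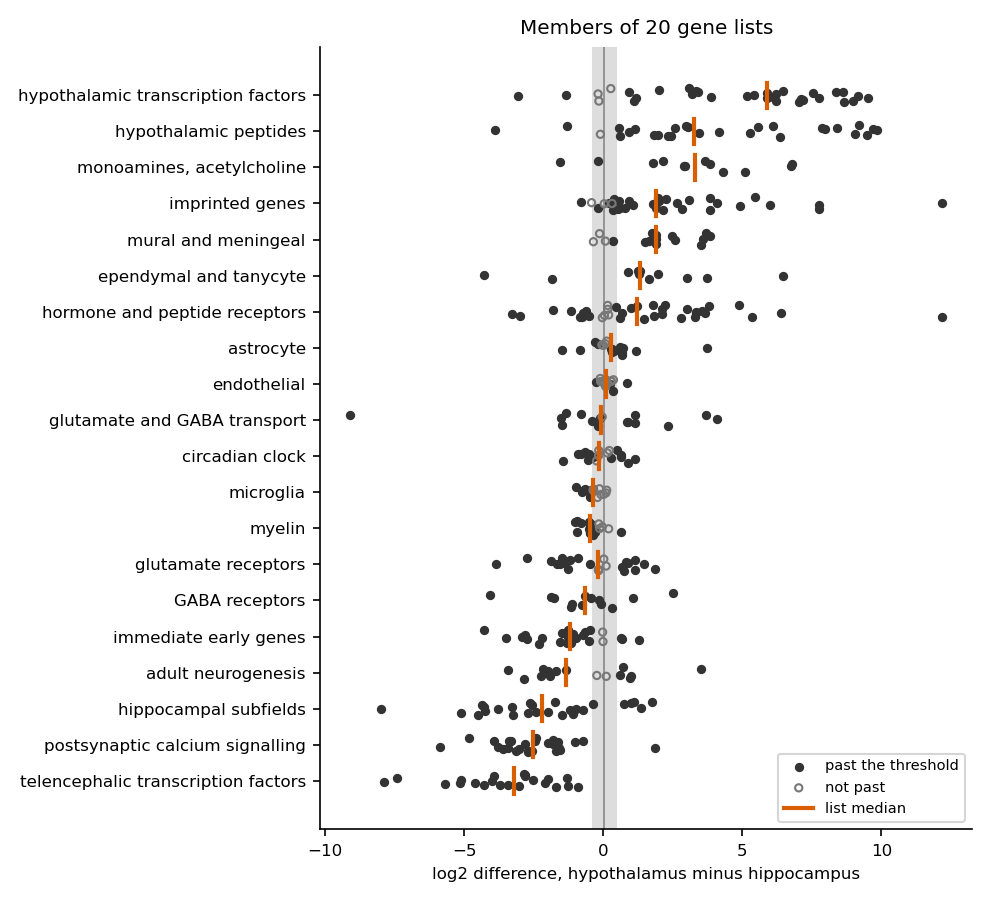
Log2 difference, hypothalamus minus hippocampus, of every tested member of 20 gene lists, ordered from lists high to lists low in hypothalamus. Filled points passed the threshold, open points did not, orange bars are list medians, the vertical line is the median over all tested genes (0.03) and the grey band spans the lower to the upper quartile of all tested genes. Medians run from 5.87 for hypothalamic transcription factors to -3.23 for telencephalic ones.

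Immediate early genes, switched on within minutes of neuronal firing, were lower in hypothalamus for 19 of 24, higher for 3 and not past for 2 (median log2 -1.21). Their hippocampus levels were spread widely: Arc, an effector of synaptic plasticity, had 28.1 (LP) and 28.9 CPM (NP) in hypothalamus, against 586, 325, 294 and 157 CPM in LP male, NP male, LP female and NP female hippocampus. Egr3 (-4.29 ± 0.12) and Homer1 (-2.80 ± 0.07) were lower as well. The members that rose were Sik1 (1.27), Fos (0.68) and Klf4 (0.62), and for Fos the regions overlapped, with 75.8 (LP) and 61.5 CPM (NP) in hypothalamus against 19.01 to 84.7 CPM in hippocampus. The call on Fos (adjusted p = 0.0449) was lost in 10 of 16 alternative fits, and that on Klf4 without the LP hypothalamus library. In 7 of the 24 genes the regions overlapped and in 17 they did not, a share close to the 70.4% of all tested genes without overlap. Of 19 circadian clock genes, 6 were higher, 8 lower and 5 did not pass (median -0.17); Rorb (1.12) and Cry1 (0.89) led upward and Npas2 (-1.46) and Bhlhe40 (-0.90) downward. The time of day at which tissue was taken is not given in the labels, and its part in these values was not tested.

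Most glial genes differed by less than 2-fold between regions. Of 19 myelin genes, 14 were lower in hypothalamus, 1 higher and 4 did not pass, with a median of -0.47. Over the 14 members measured in all libraries, the summed level was 2765 (LP) and 3653 CPM (NP) in hypothalamus against 4103 to 5103 CPM in hippocampus. Mal was lower (-0.95 ± 0.07), and so was Myrf, a regulator of myelin genes (-1.03 ± 0.09). Of 6 precursor genes, C1ql1 was higher (0.56), Matn4 lower (-0.34, regions overlapping) and 4 did not pass. Among 18 astrocyte genes 10 were higher, 4 lower and 4 did not pass (median 0.28). Agt, the angiotensinogen gene, was by far the most different, with 175 (LP) and 206 CPM (NP) in hypothalamus against 14.3, 10.5 and 18.4 CPM in LP male, NP male and LP female hippocampus. Slc1a2, the main astrocytic glutamate transporter gene, was lower (-1.503 ± 0.05), and Aqp4 did not pass at 160 (LP) and 122 CPM (NP) against 129 to 158 CPM. Of 16 microglia genes, 8 were lower, none was higher and 8 did not pass; P2ry12 (-0.99 ± 0.11) and Cx3cr1 (-0.69 ± 0.09) were among the lower ones.

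Genes of meninges and smooth muscle were higher in hypothalamus and uneven within it, and pericyte genes were read in the same list. Of 16 tested, 13 were higher, none was lower and 3 did not pass (median 1.89). Without the LP hypothalamus library, 11 were higher, 2 lower and the median was 1.21, and without the NP one 13 were higher and the median was 2.53. Their summed level was 1951 CPM in the LP and 969 CPM in the NP hypothalamus library, against 279 to 298 CPM in the 3 hippocampus libraries that measured all members. Igf2 had 879 (LP) and 481 CPM (NP) in hypothalamus, against 57.1, 40.5 and 52.6 CPM in LP male, NP male and LP female hippocampus. The collagen gene Col1a2 had 178 (LP) and 72.0 CPM (NP), against 13.8, 8.01 and 15.3 CPM. Slc6a13 and Dcn, named above, belong to this list. The pericyte genes Rgs5, Abcc9 and Kcnj8 were the 3 that did not pass (log2 -0.14, -0.36 and 0.07). Pdgfrb was higher by 0.36 (adjusted p = 0.0425 in the main edgeR test), a call lost in 9 of 16 alternative fits. Of 15 endothelial genes, 3 were higher (Cdh5 0.83, Bsg 0.35, Egfl7 0.23), 1 was lower (Flt1 -0.26) and 11 did not pass (median 0.11). Without the LP hypothalamus library, Cdh5 dropped to 0.21 and no longer passed (adjusted p = 0.347), and the endothelial median became -0.14. Under DESeq2, Flt1, whose regions overlapped, Egfl7 and the precursor gene Matn4 did not pass (adjusted p = 0.449, 0.304 and 0.0894), and Flt1 changed sign without either NP male library. The call on Egfl7 was lost in 11 of 16 alternative fits, among them each fit without 1 of the 6 libraries, that on Matn4 in 9 and that on Flt1 in 8.

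The most abundant genes that were at least 2-fold higher in hypothalamus included ones that meninges or glia are known to make. Ptgds, a prostaglandin synthase secreted into cerebrospinal fluid by meninges, had 4672 (LP) and 2550 CPM (NP) in hypothalamus, against 302, 204, 322 and 428 CPM in LP male, NP male, LP female and NP female hippocampus (log2 3.48 ± 0.22). Sparc, a matrix-associated protein gene, was equal in both, at 1813 (LP) and 1812 CPM (NP) against 304 to 320 CPM (2.54 ± 0.04). Gaa, the lysosomal glucosidase gene, Zwint, a kinetochore protein gene also expressed in neurons, and 6330403K07Rik were higher by 1.96, 1.29 and 2.14. The part of meningeal tissue in the Ptgds, Igf2 and collagen differences was not tested. The most abundant genes in the other direction, beside Camk2a and Slc1a2, were neuronal. Ncdn, the neurochondrin gene, was lower (-2.14 ± 0.04), as was Snap25, which drives vesicle fusion (-1.22 ± 0.04).

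Ventricle and blood genes moved with region as well. Of 11 ependymal and tanycyte genes, 9 were higher in hypothalamus and 2 lower. Rax, a factor of tanycytes that line the third ventricle, had 2.82 (LP) and 2.79 CPM (NP) and 1 count over hippocampus (count ratio 125, 95% interval 21.9 to 4990). Scn7a (3.72) and Col23a1 (3.01) followed, whereas Crym (-4.28), which pyramidal neurons also express, and Dio2 (-1.84) were lower. Of 13 choroid plexus genes, 8 were lower, 2 higher and 3 did not pass. Ttr, the transthyretin gene that defines choroid plexus, had 2.5 (LP) and 3.43 CPM (NP) in hypothalamus, against 220, 110, 196 and 42.3 CPM in LP male, NP male, LP female and NP female hippocampus. The NP female library was the lowest of the hippocampus in Ttr, and the regions did not overlap. Prlr (3.78) and Clic6 (2.15) were the choroid list members that were higher; Prlr is also a hormone receptor of hypothalamic neurons. Of 5 blood genes, 4 globin genes were higher by 1.91 to 1.97, with a sum over the 3 members measured in all libraries of 707 (LP) and 1054 CPM (NP) in hypothalamus against 191 to 277 CPM. Hba-a1 and Hba-a2, like Hbb-bs and Hbb-bt, are near-identical copies, and how reads were divided between them is uncertain.

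**Figure D4:**
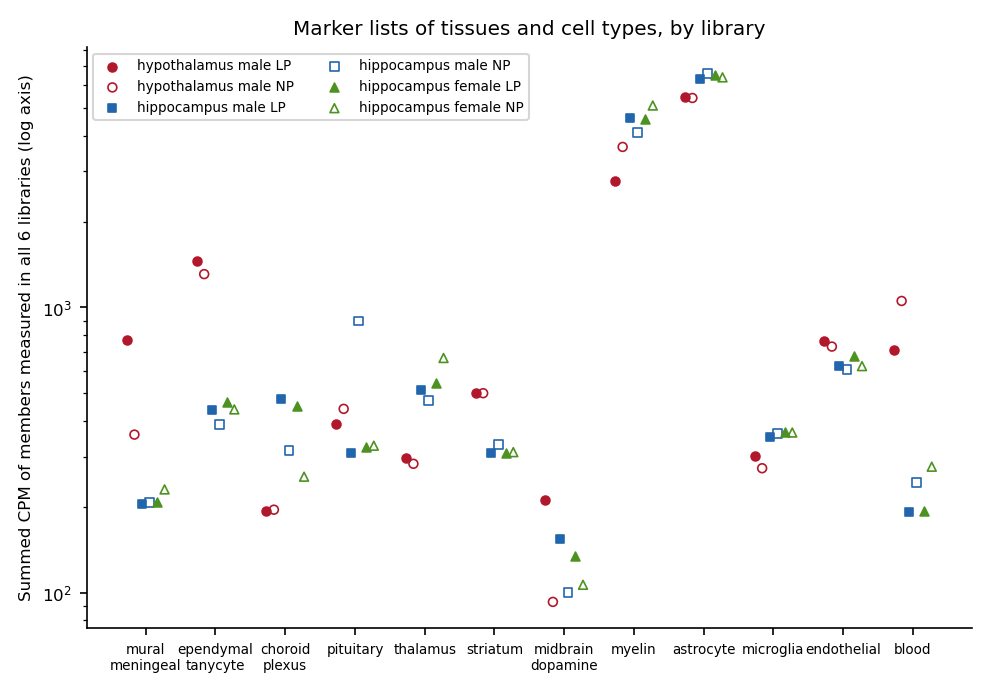
Summed level of marker lists of tissues and cell types in each library, over the members measured in all 6 libraries, in CPM on a log axis. Red circles are hypothalamus, blue squares male hippocampus and green triangles female hippocampus; filled symbols are LP and open symbols NP. The LP hypothalamus library lies highest for mural and meningeal genes (768 CPM, against 359 CPM in the NP library and 205 to 230 CPM in hippocampus), and the NP male hippocampus library for pituitary genes (897 CPM).

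Neighbouring tissues could enter a dissection, and their marker lists were read in each library. Of 8 tested pituitary genes, 5 were higher in hypothalamus (Tbx19, Pomc, Pitx1, Cga, Tshb), 1 lower (Pcsk2) and 2 did not pass. Tbx19 had 140 counts in hypothalamus and 0 in hippocampus (at least 63.5-fold higher; DESeq2 adjusted p = 0.102). The hormone genes Gh and Prl did not follow region: Gh had 14.6 (LP) and 81.6 CPM (NP) in hypothalamus, against 0.422, 468, 5.53 and 0.184 CPM in LP male, NP male, LP female and NP female hippocampus. The NP male hippocampus library also held the highest Prl, at 108 CPM. Without that library 6 pituitary genes were higher, 1 was lower, and the list median was 5.15 in place of 2.57. Pou1f1, a defining factor of pituitary hormone cells, had 1 count in each hypothalamus library, against 0, 7, 0 and 0 in hippocampus. The part of pituitary tissue in the region difference was not tested.

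Striatal genes were higher in hypothalamus for 10 of 14 and lower for 3, with Isl1 and Tac1 leading (7.75 and 4.16); Isl1, Tac1, Penk and Drd2 are hypothalamic genes as well. Foxp1, Ppp1r1b and Pde10a were lower (-1.70, -1.10 and -1.08). Midbrain dopamine genes summed to 266 (LP) and 137 CPM (NP) in hypothalamus, against 102 to 156 CPM in the 3 hippocampus libraries that measured all members, and 6 of 8 tested were higher. Foxa1 led them with 1 count over hippocampus (count ratio 185, 95% interval 32.6 to 7360), and Th, Slc6a3 and Lmx1b followed. En1, a midbrain and hindbrain factor below the count filter, had 28 counts in the LP and 4 in the NP hypothalamus library and 0 in hippocampus. Thalamic genes split, with 5 of 14 higher, 5 lower and 4 not past, and so did 15 neocortical genes, with 7 higher, 7 lower and 1 not past. Interneuron genes were lower for 9 of 15 and higher for 5. Of 15 genes of adult neurogenesis, a process of the dentate gyrus, 8 were lower, 5 higher and 2 did not pass; Neurod1 (-3.43), Eomes (-2.86) and the proliferation gene Mki67 (-2.16) were lower, and Calb2 (3.52), which mature hypothalamic neurons also express, was higher. The 8 tested protein genes of the mitochondrial genome did not pass, and another 5 fell below the count filter. The 13 together held 14.74 (LP) and 16.46 CPM (NP) in hypothalamus, against 13.64 to 19.02 CPM in the 3 hippocampus libraries that measured them. With so few reads, these tests cannot decide whether mitochondrial RNA differed between regions.

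Among long noncoding RNA genes with a mean of at least 10 CPM, AI504432 (1.87 ± 0.11), 3110039I08Rik (1.55 ± 0.08) and Gm28370 (1.24 ± 0.12) were the most increased in hypothalamus. A830036E02Rik had 0.962 (LP) and 0.756 CPM (NP) in hypothalamus against 23.7 to 30.9 CPM in hippocampus (log2 -4.98 ± 0.17), and 3300002P13Rik (-3.05 ± 0.08) and Gm35040 (-2.69 ± 0.13) followed. Of 347 tested lincRNA genes, 46 were at least 2-fold higher and 78 lower, against 1807 and 1353 of 14033 protein-coding genes.

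The LP and the NP male libraries gave 1 ratio of hypothalamus over hippocampus each. Across 16361 genes the log2 ratios of the pairs correlated with r = 0.92, a description across genes, which are not independent. The ratios of the pairs differed by more than 1 (log2) in 720 of these genes, and in 75 of the 10608 genes with a mean of at least 10 CPM.

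**Figure D5:**
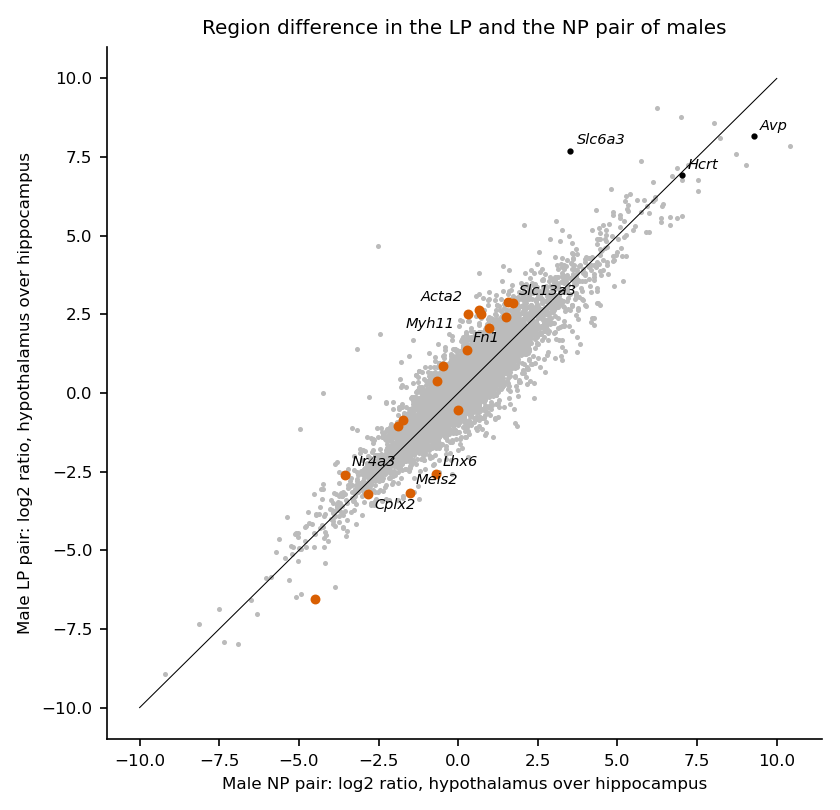
Log2 ratio of hypothalamus over hippocampus in the male LP pair (vertical axis) and the male NP pair (horizontal axis) for 16361 genes; the line marks equal ratios. Orange points are the 18 genes past the threshold in the test of region by diet, which rests on 1 hypothalamus library per diet; Acta2 and Myh11 lie above the line and Lhx6 and Meis2 below it, and black points are Avp, Hcrt and Slc6a3.

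Whether the region difference depended on diet was tested with an interaction of region and diet over the 11120 genes measured in all libraries. The test passed 18 genes (0.162%), 13 with a positive value (0.117%) and 5 with a negative one (0.045%), where the value is the difference of hypothalamus minus hippocampus in LP less that in NP, and 1050 had an unadjusted p under 0.05. Genes of vessel walls and matrix were among the 13. Acta2, the smooth muscle actin gene, had 54.8 (LP) and 16.3 CPM (NP) in hypothalamus, against 8.60, 10.3, 7.72 and 8.63 CPM in LP male, NP male, LP female and NP female hippocampus, an interaction of 1.96 ± 0.21 (log2, adjusted p = 0.00493). The smooth muscle myosin gene Myh11 had 34.6 (LP) and 8.73 CPM (NP), against 5.91, 6.96, 6.48 and 6.795 CPM (2.14 ± 0.23, adjusted p = 0.00493), and Vtn, the vitronectin gene, 237 (LP) and 106 CPM (NP) against 53.5 to 65.2 CPM (1.25 ± 0.14). Acta2, Myh11 and Vtn are members of the meningeal and mural list, whose sum was higher in the LP hypothalamus library as given above.

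The 5 genes with a negative value included forebrain transcription factors. Lhx6 had an interaction of -1.89 ± 0.24 (adjusted p = 0.0159). Meis2, a homeobox factor of striatal and other forebrain neurons, had 3.14 (LP) and 11.1 CPM (NP) in hypothalamus, against 29.4, 32.1, 27.7 and 26.5 CPM in hippocampus (-1.77 ± 0.28, adjusted p = 0.0388). Sncb and Cplx2, of nerve terminals, had -0.50 and -0.40. The spread behind this test came from the male and female hippocampus libraries of each diet, since hypothalamus had 1 library per diet. The tag in the label of the LP hypothalamus library also differs from the pattern that all other libraries share, and its meaning is not given. Diet, animal, dissection and whatever that tag stands for cannot be told apart between these 2 libraries. The count moved from 6 without the LP male hippocampus library to 326 without the NP female one, and was 0 without the count filter.

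Further genes of single nuclei or neighbouring forebrain areas were uneven between the hypothalamus libraries. Lhx8, a factor of basal forebrain cholinergic neurons, had 2 counts in the LP and 65 in the NP library, and Ucn3, a peptide of the perifornical area, 3 (LP) and 56 (NP). Both fell below the count filter and were not tested. Tbr1 had 0.641 (LP) and 3.55 CPM (NP) in hypothalamus against 47.9 to 57.0 CPM in hippocampus, and its region by diet value did not pass (log2 -2.42 ± 0.45, adjusted p = 0.0735). Slc6a3, Hcrt and Crh, given above, differed more than 3-fold between the 2 libraries and did not pass either (3.92 ± 0.95, 0.51 ± 1.06 and -2.36 ± 0.53, adjusted p = 0.19, 0.915 and 0.146). The Hcrt value was positive although its level was lower in the LP hypothalamus library. That value depends on 9 counts over hippocampus and says little about the gap between the hypothalamus libraries. By level, Otp, Sim1, Isl1, Calcr and Sparc were nearly equal between the hypothalamus libraries.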

How the data were processed

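RNA sequencing of CF1 mouse brain regions gave 1 library per region, sex and perinatal diet, prepared from total RNA with a TruSeq kit, per the labels' protocols. The authors deposited 1 table of raw counts of reads per gene. Per the submitters' processing notes, CASAVA, FastQC 0.10.1 and STAR 2.5.0a were used with the mm10 genome. The counting tool, its annotation and its use of strand (not given in the sources used here) are unknown, so overlapping, antisense and near-identical genes are uncertain. Of 47729 genes, 47224 matched GENCODE M21, 505 did not, and 4179 on X and Y were left out of the tests.

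The female NP hippocampus column holds no counts from a point on chromosome 4 onwards in the table's order: 4574 of 4575 genes there with a mean of at least 50 counts were at 0, against 6 of 8743 before it. These genes were treated as missing in that library, and genes measured in 6 and in 5 libraries were fitted apart, with p-values adjusted over both. Total counts were 7871010 to 16265481 per library. CPM were taken on effective library sizes of 10487404 (LP female hippocampus) to 17191576 (NP hypothalamus), on which 1 count corresponds to 0.0954 and 0.0582 CPM. Intervals and floors cover counting error only.

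Genes were filtered at a minimum count of 10 (filterByExpr) and tested with edgeR 4.0.16 in R 4.3.3: TMM scaling, the quasi-likelihood test, region with diet as a covariate, Benjamini-Hochberg adjustment and a threshold of 0.05. Region was the group of the count filter, so expression in either region was enough to pass. With 3 or 2 residual degrees of freedom, the spread was shared across genes. Region by diet was tested in the same way over genes measured in 6 libraries. The fits were tested on simulated data. Alternatives were upper quartile scaling, TMM per gene set, DESeq2 1.42.0, other filters and designs, males only, the zeros kept as counts, and each library left out.

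Genes were named by a rule: the 12 largest differences in each direction among protein-coding genes with a mean of at least 10 CPM and no overlap, the 5 most abundant in each direction at 2-fold, the 4 markers, up to 4 called members per list and any member behind a count of 5 or fewer, 3 long noncoding genes in each direction, and the 3 smallest p in each direction for region by diet. A few of these genes are left out of the text and not reported here. Further list members were named after their values were seen. The members and lists were chosen with earlier results of these data known; a gene in more than 1 list counts in each.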

Additional observations from a re-analysis of the deposited data

Results flagged for a closer look

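In 11 of 90 groups of 4 hippocampus libraries checked, 1 library lay far from the other 3 relative to the whole range of the group; chance alone gives such a gap in about 1 in 20 groups of continuous values, a rate that does not hold where 3 libraries are at 0, as in Foxa1 and Rax. The NP male library stood apart for Dlk1 (5.46 CPM), Cga (1.76 CPM), Snap25 (2530 CPM) and Rax (0.0880 CPM). The LP male library stood apart for Avpr1a (0.169 CPM). The LP female library stood apart for Adra1d (48.7 CPM), the astrocytic connexin gene Gjb6 (74.95 CPM) and the microglial gene Fcrls (12.3 CPM). The NP female library stood apart for Isl1 (0.367 CPM) and Foxa1 (0.0918 CPM). The values of Rax, Avpr1a, Isl1 and Foxa1 rest on a few reads. Dlk1 and Cga were high in the library that also held the highest Gh and Prl.

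In the test of region by diet, 18 genes passed the threshold, against 0 without the count filter and 6 to 326 with 1 hippocampus library left out. The value, hypothalamus minus hippocampus in LP less the same in NP, was positive for Acta2 (1.96), Myh11 (2.14), Vtn (1.25), the fibronectin gene Fn1 (1.14), Slc13a3 (1.31), Ptprb (1.00), Jcad (0.85), Mylk (1.38), Igfbp2 (1.06), Igfbp4 (0.79), Nr4a3 (0.93), Efemp1 (1.40) and Thbd (1.41), all on the log2 scale. It was negative for 5 genes, among them Lhx6 (-1.89), Meis2 (-1.77), Sncb (-0.50) and Cplx2 (-0.40). Each rests on 1 LP and 1 NP hypothalamus library. Igfbp2 had 114 CPM in the LP and 48.2 CPM in the NP hypothalamus library, against 16.9 to 22.5 CPM in hippocampus, and Fn1 204 (LP) and 77.0 CPM (NP) against 63.9 to 88.9 CPM.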

How the results depend on the processing

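Leaving out each library in turn gave 8989 to 10104 genes that differed between regions, against 10400 with all 6. DESeq2 gave 7962, of which 7868 were shared. Keeping the zeros of the incomplete library as counts gave 5340 (2686 higher and 2654 lower, and 1185 and 1067 at 2-fold), 5329 of them shared. For region by diet, upper quartile scaling gave 11 genes in place of 18, no filter on low counts gave 0 (1227 at an unadjusted p under 0.05), DESeq2 gave 16 (12 shared), and leaving out a hippocampus library gave 6 to 326, with 1 residual degree of freedom. Without a hypothalamus library that test cannot be made. Flt1 changed sign to 0.16 with the zeros kept, to 0.045 without the NP male hippocampus library and to 0.0451 without the NP hypothalamus library, and its values with 1 library left out ran from -0.7329 to 0.0451. Of 140 genes named by rule, 54 lost the call with the zeros kept (Flt1, which changed sign, is counted apart), 7 under DESeq2 and 0 to 5 elsewhere. Without the LP hypothalamus library, Cdh5, Myh11, C1ql1, Matn4 and Egfl7 lost it. Lone libraries were assumed to vary like the rest. No paired analysis was possible because the labels tie no libraries of the regions to the same animals, and the fit of males only matches sex and diet. Depth limits genes near 3 counts in a library.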

Other observations

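Genes of energy sensing and neuropeptide release outside the leading set were also read. Gal, the galanin gene, and Adcyap1, which encodes the peptide PACAP, were higher in hypothalamus by 6.36 and 5.29 (log2), and Gnrh1, the gonadotropin-releasing hormone gene, by 1.96. Among receptors, the orexin receptor genes Hcrtr1 and Hcrtr2 were higher by 2.12 and 1.83, while the melanocortin receptor gene Mc4r and the melanin-concentrating hormone receptor gene Mchr1 were lower (-0.73 and -0.64), unlike Mc3r above. The growth hormone receptor gene Ghr was higher by 2.11 and the ghrelin receptor gene Ghsr by 3.01, while the somatostatin receptor genes Sstr3 and Sstr4 were lower (-1.82 and -3.01).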
